A study of Mus musculus with 95 samples.

Results

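Binding of 4 PCGF proteins was compared between 2 lines of E14 mouse embryonic stem cells, the control line Ring1a-/-_Ring1bfl and the line Ring1a/b-/-, which lacks RING1A and RING1B, the catalytic subunits of Polycomb repressive complex 1 (PRC1). Both lines lack Ring1a, so the difference between them is the loss of RING1B on a background without RING1A. Per the labels' protocols, the floxed Ring1b line carries a CreERT2 transgene at Rosa26. The members were the peaks of PCGF1, PCGF2, PCGF3 and PCGF6 in these lines, taken from 8 of the 80 deposited peak lists and 8 of the 95 samples of the series, after every peak was removed that overlapped a peak of the same antibody in the knockout of its own target. The own-target knockouts were Pcgf1-/-, Pcgf2/4-/-, Pcgf3/5-/- and Pcgf6-/-, which are Cas9-edited lines per the labels. This left 20539 peaks over the 8 lists. A control peak was called kept when it shared at least 1 bp with a Ring1a/b-/- peak of the same antibody and lost when it shared none, and a Ring1a/b-/- peak was called gained when it shared no base with a control peak. Wild-type peaks of SUZ12, RING1B, USF1, WDR5 and H3K4me3, and expression in the 4 own-target knockouts and in wild-type cells, were then read at these sites. PCGF6 peaks in cells with hairpins against E2f6 (shE2F6) or Mga (shMGA) and in their hairpin control (shCtr), 1 library each, RING1B peaks in Pcgf6-/- and other wild-type PCGF peaks were also used. Gained peaks were also compared with lists of the same antibody in other Pcgf knockouts. Culture was in serum with LIF plus GSK3β and MEK inhibitors, and gelatin coated the dishes.

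Each PCGF protein pairs with RING1A or RING1B and defines a separate form of PRC1, an enzyme complex that places ubiquitin on histone H2A. PCGF2 belongs to canonical PRC1, whose CBX subunits bind the H3K27me3 mark that PRC2, which contains SUZ12, deposits. The other forms are recruited by DNA-binding partners: PCGF1 works with KDM2B, which binds unmethylated CpG islands, PCGF3 has been linked to USF1, a factor that binds the E-box CACGTG, and PCGF6 works with MGA, MAX, L3MBTL2 and E2F6, factors that silence germline genes in embryonic stem cells. WDR5 is a subunit shared by several chromatin complexes, among them that of PCGF6.

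Sequences at some summits are given as examples of sites that stayed bound or were lost. Each is a short window of build NCBIM37 (mm9), plus strand, centred on the Ring1a/b-/- summit for kept peaks and on the control summit for lost ones, and capitals mark the E-box CACGTG and, at Dhx40, also the T-box motif TCACACCT. Among the kept PCGF3 peaks with the highest fold enrichment, the E-box stood in several copies within one window.
Plbd1 intron, PCGF3 kept, chr6:136599322-136599422: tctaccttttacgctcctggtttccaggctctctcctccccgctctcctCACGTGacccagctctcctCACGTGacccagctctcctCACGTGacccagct
Rgs9 intron, PCGF3 kept, chr11:109087138-109087238: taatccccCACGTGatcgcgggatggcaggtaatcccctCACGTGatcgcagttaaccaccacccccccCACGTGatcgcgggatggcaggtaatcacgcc
Dvl2 promoter, PCGF3 kept, chr11:69813990-69814090: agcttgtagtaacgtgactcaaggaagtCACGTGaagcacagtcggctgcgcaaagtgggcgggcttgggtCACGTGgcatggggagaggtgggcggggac
Among PCGF6 sites, 2 of the most enriched kept promoters and 1 lost promoter are shown as examples. Their motifs are no measure of the classes, since an E-box stood near 39.1% of lost PCGF6 summits too.
Dhx40 promoter, PCGF6 kept, chr11:86621252-86621352: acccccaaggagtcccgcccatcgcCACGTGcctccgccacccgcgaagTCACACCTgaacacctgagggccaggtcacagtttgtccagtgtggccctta
Sox30 promoter, PCGF6 kept, chr11:45793516-45793616: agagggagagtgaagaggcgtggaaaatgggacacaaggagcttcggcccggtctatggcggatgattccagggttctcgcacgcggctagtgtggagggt
Usp47 promoter, PCGF6 lost, chr7:119166784-119166884: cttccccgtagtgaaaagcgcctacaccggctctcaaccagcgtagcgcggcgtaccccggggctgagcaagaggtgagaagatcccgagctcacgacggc

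The precision of every comparison between the 2 lines is limited by 1 library per antibody and line, so no difference between them has a replicate check, and the 95% intervals given below cover the counting of peaks only. Read depth is not given in the sources used here, and a shorter list cannot be told apart from a weaker library. The lists differed widely in length also between lines that have RING1B: PCGF1 had 736 peaks in wild-type cells and 12735 in the control line. RING1A and RING1B themselves were not measured in these 2 lines in the files analysed here. RNA libraries held 2147968 to 7848161 counts, with 2 libraries per group. Wild-type RNA carried all 8 embryonic stem cell markers examined, from 81.4 CPM (read counts scaled to a common library total) for Sox2 to 745 CPM for Tfcp2l1 in replicate 1. Of the primitive endoderm markers, Gata4, Gata6, Sox17, Foxa2 and Dab2 had 0 counts in both wild-type libraries and Pdgfra had 12 and 14. Other lineage markers were not all silent, with T at 37.2 and 30.6 CPM, Cdx2 at 72.9 and 79.4, Tubb3 at 83 and 85.2 and Pdgfrb at 33.0 and 32.9. Pcgf1 mRNA fell from 66.1 and 61.0 CPM to 4.81 and 3.20 in Pcgf1-/-, and Pcgf6 mRNA from 36.2 and 34.3 CPM to 0 in both Pcgf6-/- libraries. The mRNA of Pcgf2 (log2 fold change 0.10, adjusted p = 0.601) and Pcgf3 (-0.40, adjusted p = 0.242) was not called changed in the lines labelled Pcgf2/4-/- and Pcgf3/5-/-. Ring1, which encodes RING1A, fell from 6.56 and 8.44 to 4.23 and 3.52 CPM in Pcgf6-/- (adjusted p = 0.0114), and Rnf2, which encodes RING1B, was not called changed in any of the 4 lines (adjusted p of 0.469 to 0.949). The mRNA levels of Pcgf2 and Pcgf3 do not test an edit that leaves the mRNA in place.

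Almost no control PCGF2 peak was called again in the line without RING1A and RING1B. Of 3769 control peaks, 8 were kept, or 0.212% (95% Wilson interval 0.108 to 0.418), against 7.28% for PCGF1 (6.85 to 7.75), 34.5% for PCGF3 (26.3 to 43.8) and 38.3% for PCGF6 (36 to 40.8). Of the 3761 lost PCGF2 peaks, 84.8% overlapped wild-type SUZ12 and 83.4% overlapped wild-type RING1B. Nearly all control peaks were lost, so these shares are close to those of the whole control list (84.6% and 83.2%). None of the 3189 PCGF2 peaks with SUZ12 was kept, which allows a kept share of up to 0.120% (upper Wilson bound).

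**Figure D1:**
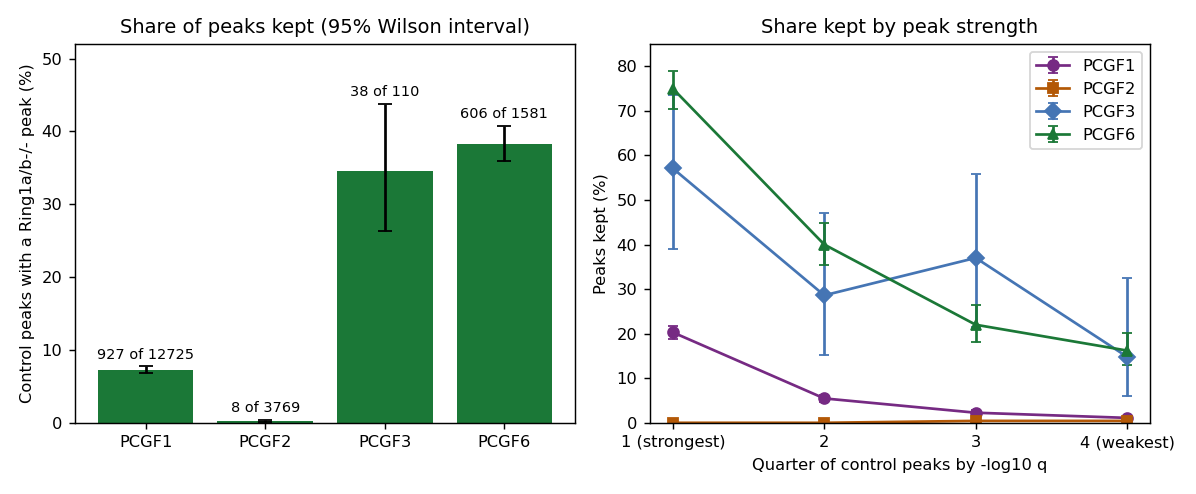
Left, share of control peaks with an overlapping peak of the same antibody in Ring1a/b-/- (%), with the number of peaks above each bar; right, the same share within 4 strength groups of equal size, the control list ranked by −log10 q, strongest first. Error bars are 95% Wilson intervals over peaks of 1 library each. PCGF6 fell from 75% kept in its strongest strength group to 16.2% in its weakest, while PCGF2 had none kept in its 2 strongest strength groups.

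Beside 74.4% of the whole control list, 74.5% of the lost PCGF2 peaks lay at promoters. The strongest of these lay at Neurod2, a neuronal transcription factor (50.1-fold enrichment in the control list), Nr2e1, a nuclear receptor of neural stem cells (48.0-fold), Gm1337 (45.5-fold), the homeobox gene Alx4 (43.7-fold) and Ecel1, a neuronal endopeptidase (43.3-fold), and all 5 overlapped SUZ12, RING1B and H3K4me3. Of 39 Hox genes 37 had a control PCGF2 promoter peak and none kept it, and the same held for 29 of 30 endoderm and mesoderm regulators, 37 of 41 annotated neural and ectoderm regulators and 26 of 29 Wnt, BMP, FGF and Hedgehog ligands. For comparison, 1876 of 22238 protein-coding genes had a control PCGF2 promoter peak, and 2 of them, Ugt1a1 and Tcte2, kept one. In the line labelled Pcgf2/4-/-, genes with only lost PCGF2 promoter peaks were raised in 115 and lowered in 262 of 1206 tested cases (9.54% and 21.7%), beside 8.1% raised and 13.5% lowered among all 15464 genes tested, with medians of -0.30 and 0.00 on the log2 scale. The Hox genes ran the other way, with 10 of 18 tested raised, none lowered and a median log2 fold change of 1.33. Genes with only lost PCGF2 promoter peaks had a wild-type median of 0.603 CPM per kb, against 7.78 for all genes tested. The part of expression level in these calls was not tested.

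The 8 kept PCGF2 peaks lay outside the Polycomb sites. They overlapped none of the wild-type SUZ12, RING1B, USF1, WDR5, H3K4me3 or PCGF2 peaks. Of the 8, 3 lay at Ugt1a1 and Heatr7b1 within 1 Mb of chromosome 1, 3 side by side at Tcte2 on chromosome 17, and 1 each near Sfi1 and Klhdc4, with 2.94-fold to 8.31-fold enrichment in the control list. Without these regions of chromosomes 1 and 17, the kept share was 0.0532%. Removal of the Pcgf2/4-/- peaks mattered here: 67.7% of the Ring1a/b-/- PCGF2 list was removed by it, and without removal 113 peaks, or 2.89%, counted as kept.

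PCGF1 kept a small share of its control peaks, more often strong than weak ones. Of 12725 control peaks, 927 were kept and 11798 lost. This share depended on the lists compared: it was 36.2% with equally many peaks from both lists, 29% among control peaks also called in wild-type and 22.6% with the wild-type list as reference, where PCGF3 had 12.3%. Kept peaks were wider (median 1199 bp against 566 bp) and more enriched in the control list (median 9.68-fold against 6.20-fold), and the kept share fell from 20.3% in the strongest strength group to 5.47%, 2.26% and 1.10% in the others. They lay more often within 2.5 kb of an annotated start (92.0% against 77.5%, difference 14.6 percentage points, 95% Newcombe interval 12.5 to 16.3) and almost always on wild-type H3K4me3 (98.7% against 83.4%), the mark of active and poised promoters. WDR5 (15.2% against 6.69%) and USF1 (13.7% against 7.48%) were also more frequent at kept peaks. The part of peak width in these overlaps, and in the call of a peak as kept, was not tested. The promoter difference was -1.13 points among the 627 control peaks that overlapped a wild-type PCGF1 peak and 1.29 points for equally many peaks from both lists.

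SUZ12 overlap at PCGF1 peaks depended on how strength was handled. Kept peaks overlapped SUZ12 in 55.2% and lost peaks in 43.4% of cases, a difference of 11.9 points (8.53 to 15.2). Within every strength group the order was opposite: 73.7% of kept and 79.5% of lost peaks in the strongest strength group, then 18.4% and 48.7%, 5.56% and 30.6%, and 0% and 21.8% in the weakest. With at least 50% of the control peak covered, the difference was -17.3 points, and with equally many peaks from both lists -2.91 points. RING1B overlap was likewise 53.4% at kept and 39.9% at lost peaks in all, and lower at kept peaks within each strength group.

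**Figure D2:**
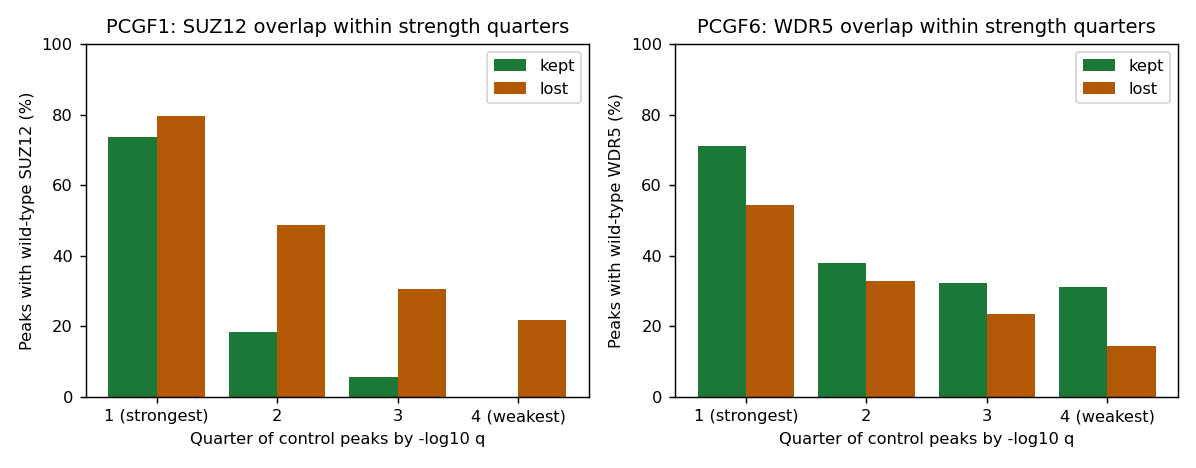
Share of peaks overlapping a wild-type peak (%) within 4 strength groups of equal size, the control list ranked by −log10 q; left, SUZ12 at kept (green) and lost (orange) PCGF1 peaks, right, WDR5 at kept and lost PCGF6 peaks. SUZ12 was lower at kept than at lost PCGF1 peaks in all 4 strength groups, while WDR5 was higher at kept PCGF6 peaks in all 4.

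The kept PCGF1 promoters with the highest fold enrichment in Ring1a/b-/- belonged to genes of several kinds. Vgll4, a cofactor of TEAD factors, had 16.3-fold enrichment in the control list and 9.50-fold in Ring1a/b-/-. Axin2, a feedback inhibitor of Wnt signalling, had 9.77-fold and 9.13-fold, the glycolytic gene Gapdh 7.52-fold and 9.02-fold, the imprinted gene Peg10 22.3-fold and 8.79-fold, and Gmcl1 13.3-fold and 8.76-fold. Of these 5, Peg10 overlapped SUZ12 and RING1B in wild-type cells. The lost promoters with the highest control enrichment were those of Gadd45g, a stress-response gene (17.9-fold), Adrb1, a beta-adrenergic receptor (17-fold), the CDK inhibitor Cdkn1c (16.8-fold), the eye and brain regulator Pax6 (16.5-fold) and Prph, a neuronal intermediate filament gene (16.3-fold). All 5 lost promoters overlapped SUZ12 and RING1B. Kept promoters were ranked by fold in Ring1a/b-/- and lost ones by control fold, so these counts do not compare the classes. In the strongest strength group of the control list, SUZ12 overlapped 73.7% of kept and 79.5% of lost PCGF1 peaks. RING1B overlapped 71.7% and 76.2% of them. Fold values are the authors' and are compared only within a list.

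Neural regulators and signalling ligands were well represented among kept PCGF1 promoters. Of 39 neural and ectoderm regulators with a control promoter peak, 16 kept one (41.0%), among them Nkx6-1, Olig1, Olig2, Lhx2, Neurog1, Neurog2, Dlx1, Dlx5, En2 and Pax2, against 12.1% of the 6509 protein-coding genes with such a peak. Ligands kept it in 9 of 28 cases (Wnt7a, Wnt7b, Wnt9a, Wnt11, Bmp2, Bmp6, Bmp7, Fgf8 and Fgf9), endoderm and mesoderm regulators in 6 of 29 (among them Gata2, Foxf1a and Eomes) and Hox genes in 3 of 37 (Hoxb2, Hoxb7 and Hoxb9). Strength moved with these shares: among genes with a control peak in the strongest strength group, 48.5% of the neural regulators, 37.5% of the ligands, 24% of the endoderm and mesoderm regulators and 14.3% of the Hox genes kept one, beside 24.5% of all such genes. No pluripotency gene of 11 and no lysosome gene of 11 kept a PCGF1 promoter peak. Only 2 of these pluripotency genes and 0 of these lysosome genes had a control peak in the strongest strength group. With 12.1% kept over all protein-coding genes, these counts do not set the 2 lists apart. The kept Neurog2 and Foxf1a peaks also overlapped another PCGF antibody's own-knockout list.

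Loss of PCGF1 itself changed genes with kept and lost promoters about equally often. In Pcgf1-/-, 109 of 640 tested genes with a kept promoter peak were raised (17%) and 18.6% lowered, and genes with only lost peaks were raised in 865 and lowered in 880 of 4654 cases (18.6% and 18.9%). All genes tested were raised in 13.9% and lowered in 18.4% of cases, and the median log2 fold change was -0.01 in both classes. Among kept genes, Hoxb7 had 1.43 and 1.13 CPM in wild-type and 10.3 and 8.23 in Pcgf1-/- libraries (log2 fold change 2.87 ± 0.37 SE, adjusted p = 8.65e-05). Of 14 tested Hox genes with only lost PCGF1 promoter peaks, 7 were also raised and 1 was lowered. Wnt11 rose from 0.856 and 0.703 to 6.45 and 4.34 CPM (2.82 ± 0.38, adjusted p = 8.54e-05). Axin2 fell from 76.3 and 78.3 to 39.1 and 32.5 CPM (-1.09 ± 0.16, adjusted p = 0.000194), and Peg10 from 37.4 and 39.4 to 19.7 and 17.4 CPM (-1.04 ± 0.16, adjusted p = 0.000316). The separation of the groups at these 4 genes enters their tests and is no further evidence. Gata2, a blood regulator, fell from 7.28 and 4.92 to 1.97 and 0.914 CPM (adjusted p = 0.00178). The count of changed genes with a kept promoter was 228, and it lay between 140 and 176 when 1 library was left out, lowest without wild-type replicate 1.

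Kept PCGF1 peaks were unevenly spread over the genome. Chromosome 11 held 181 and chromosome 6 held 139 of the 927 kept peaks (19.5% and 15.0%), against 12.9% and 6.09% of the control list and 2.17% and 5.30% of the wild-type list. The kept share was 17.9% of the control peaks on chromosome 6 and 11.1% on chromosome 11, and 5.89% of those on all other chromosomes together. Vgll4, Gapdh, Peg10 and Gmcl1 are on chromosome 6 and Axin2 is on chromosome 11, so all 5 kept promoters with the highest fold in Ring1a/b-/- came from these 2 chromosomes. By control fold, kept Neurog1 (19.6-fold, chromosome 13) and Neurog2 (17.6-fold, chromosome 3) stood above 4 of these 5. The Neurog2 peak also overlapped another PCGF antibody's own-knockout list. Chromosome 11 was frequent in other lists of these lines too. It held 14.3% of control and 17% of kept PCGF6 peaks, against 4.93% of wild-type ones. For PCGF3 these shares were 12.7%, 7.89% and 3.59%, and for PCGF2 the control and wild-type shares were 7.85% and 6.93%. The part of chromosome copy number in these shares was not tested. For PCGF1, the SUZ12 and promoter differences without chromosomes 6 and 11 were 13.2 and 13.1 points.

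Of 110 control PCGF3 peaks 38 were kept and 72 lost. The share was close to that of PCGF6 in these lists only: with the wild-type list as reference it was 12.3% against 29.2% for PCGF6, and at −log10 q of at least 15 it was 15.6% against 46%. USF1 occupied 63.2% of kept and 77.8% of lost peaks, a difference of -14.6 points whose interval (-32.4 to 2.68) spans 0, and promoters made up 63.2% and 66.7% (-3.51 points, -22.2 to 14.2). No kept peak overlapped wild-type RING1B, against 12 of 72 lost peaks (16.7%, difference -16.7 points, -26.9 to -5.20). Among the 12 control peaks with RING1B, 0 kept allows a share of up to 24.2%.

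The kept PCGF3 set had 2 parts. The 24 kept peaks with USF1 carried the E-box within 300 bases of sequence around the summit in 87.5% of cases and at least 2 copies in 83.3%, and 22 of the 24 were also called in wild-type PCGF3. The 56 lost peaks with USF1 were similar, with 92.9% and 80.4%, and 43 of them in the wild-type list. By comparison, 7.29% of 22380 protein-coding starts held an E-box and 0.657% held at least 2. USF1 sites that were kept had the higher enrichment, with a median of 9.81-fold against 6.64-fold in the control list. Of the 14 kept peaks without USF1, 1 held an E-box and none was in the wild-type PCGF3 list, and the same counts held for the 16 lost peaks without USF1. Of these 14, 3 lay in the region of chromosome 1 that also held kept PCGF2 peaks (Ugt1a1 and Trpm8) and 3 in that of chromosome 17 (Tcte2 and, farther off, Gm9880). The 3 kept USF1 peaks without an E-box stood together on chromosome 17 far from coding genes, had control enrichment of only 1.73-fold to 1.80-fold and overlapped peaks of another PCGF antibody in its own knockout. Of all kept PCGF3 peaks, 31.6% overlapped the own-knockout list of another PCGF antibody, against 15.3% of lost ones. Without these regions of chromosomes 1 and 17, 29 peaks, or 30.5%, were kept.

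Kept USF1-bound PCGF3 promoters included some of genes with lysosomal roles. Of the 36 lysosome and autophagy genes of the list, 6 had a control PCGF3 promoter peak and 3 kept it (Hexa, Lamp1 and Ctsa), against 21 of 65 protein-coding genes (32.3%). Among genes with a control peak in the strongest strength group, 2 of 4 on the list kept one, beside 56.5% of all such genes. These counts are too small to set the list apart from all genes. Hexa, a subunit of beta-hexosaminidase, had a kept peak 4 bp from its start, with 13.3-fold enrichment in the control list and 8.70-fold in Ring1a/b-/-. Nagpa, which completes the mannose 6-phosphate tag of lysosomal enzymes, had 12-fold and 8.32-fold, the lysosomal membrane gene Lamp1 9.93-fold and 7.73-fold, the protease Ctsa 6.63-fold and 6.22-fold, and Clcn6, a chloride transporter of late endosomes, 16.1-fold and 9.07-fold. Nagpa and Clcn6 are not on the list. Among lost sites, Igf2r, the mannose 6-phosphate receptor (11.2-fold), and Atp6v1h, a subunit of the proton pump (8.68-fold), also lay on USF1 peaks. Other kept promoters were those of the Wnt signalling gene Dvl2 (12.2-fold and 8.76-fold), Zmym6 (19.1-fold and 7.39-fold), Amdhd2, an enzyme of amino-sugar metabolism (18.4-fold and 9.45-fold), Mtdh (11-fold and 8.70-fold), Sgol1, which protects centromeric cohesion (14-fold and 6.59-fold), the nuclear pore gene Nup188 (7.12-fold and 6.05-fold), the microtubule regulator Stmn1 (9.70-fold and 6.05-fold), the deubiquitinase gene Atxn3 (6.64-fold and 6.05-fold), Rcbtb1 (6.13-fold and 6.05-fold), the ubiquitin ligase gene March8 (7.40-fold and 7.56-fold) and D6Wsu116e (12.1-fold and 11.5-fold). Hexa, Nagpa, Clcn6, Ctsa, Amdhd2, Stmn1 and D6Wsu116e peaks also overlapped another PCGF antibody's own-knockout list. The lost Igf2r and Atp6v1h peaks did so too.

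Genes with a kept PCGF3 promoter were too few to tell their calls in the line labelled Pcgf3/5-/- from those of all genes. Of 17 tested, none was raised and 1 was lowered at an adjusted p below 0.05 in edgeR, beside 11.1% raised and 10.4% lowered among all genes tested. The gene was Dvl2, with 40.2 and 41.9 CPM in wild-type and 29.7 and 29.1 CPM in the knockout libraries (log2 fold change -0.48 ± 0.14 SE, adjusted p = 0.0226), and its call was lost whenever 1 library was left out. At an unadjusted p below 0.05, 1 of the 17 was raised, and DESeq2 called none raised and 1 lowered. Hexa had 223 and 231 CPM in wild-type and 232 and 274 in the knockout (adjusted p = 0.713), and Lamp1 had 117 and 113 against 114 and 108 (adjusted p = 0.799). For Lamp1 the libraries of the groups overlapped. Genes with only lost PCGF3 promoter peaks were raised in 2 and lowered in 4 of 38 cases.

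PCGF6 kept the largest share, and its kept sites lay on WDR5 and USF1 rather than on SUZ12 alone. Of 1581 control peaks 606 were kept and 975 lost. WDR5 occupied 52.6% of kept and 25.8% of lost peaks (difference 26.8 points, 21.9 to 31.5), USF1 51.5% and 31.6% (19.9 points, 14.9 to 24.8), and SUZ12 18.3% and 36.7% (-18.4 points, -22.6 to -14). Promoters made up 80.9% of kept and 63.9% of lost peaks (17 points, 12.5 to 21.2). Kept peaks were wider than lost ones (median 458 bp against 324 bp), and the part of width in the overlap shares was not tested. RING1B overlapped 42.4% and 43.4%, so wild-type RING1B at a site did not separate the classes, although it was less frequent at kept peaks within each strength group (64.3% against 68.7% in the strongest, 14.1% against 38.4% in the weakest).

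**Figure D3:**
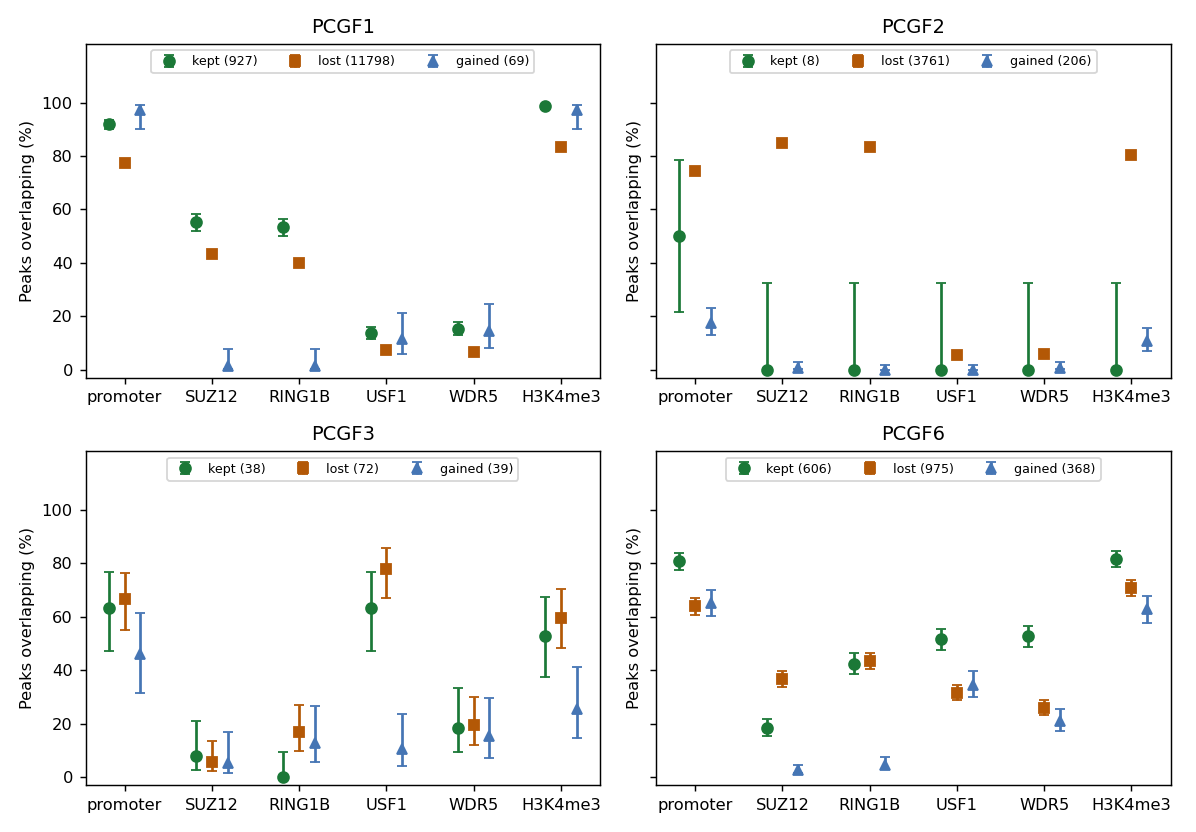
Share of kept (green circles), lost (orange squares) and gained (blue triangles) peaks of each PCGF protein that lay at promoters or overlapped wild-type peaks of SUZ12, RING1B, USF1, WDR5 and H3K4me3 (%), with 95% Wilson intervals and the number of peaks in brackets. PCGF6 kept peaks stood above lost ones for WDR5 (52.6% against 25.8%) and below them for SUZ12 (18.3% against 36.7%).

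Read the other way, the kept share of PCGF6 peaks ran from 8.44% to 71.8% with the wild-type factors present. Peaks with USF1 and WDR5 but no SUZ12 were kept in 125 of 174 cases (71.8%, 64.7 to 78.0), those with WDR5 alone of the 3 in 116 of 194 (59.8%), those with USF1 alone in 41.6% of cases, those with none in 106 of 388 (27.3%), and those with SUZ12 alone in 19 of 225 (8.44%, 5.47 to 12.8). Peaks with SUZ12 and WDR5 but no USF1 were kept in 53 of 154 cases (34.4%). Strength moved with these classes: 75% of the strongest strength group, 40.0%, 22.0% and 16.2% of the others were kept. Within strength groups WDR5 was nevertheless more frequent at kept peaks, with 71.0% against 54.5% in the strongest and 31.2% against 14.5% in the weakest, and so was USF1, with 48.1% against 26.3% and 46.9% against 32.0%.

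Sequence around the PCGF6 summits differed between the classes for some motifs. In windows of 300 bases, CACGTG was found in 50.5% of kept and 39.1% of lost PCGF6 peaks, and the E2F motif TTCCCGC on either strand in 17.5% and 10.5%, beside 7.29% and 6.18% of protein-coding starts. Kept peaks without USF1 held the E2F motif in 22.4% and the E-box in 15.6% of cases, and lost peaks without USF1 in 12.1% and 20.1%. Kept peaks with USF1 held them in 12.8% and 83.3%, and lost peaks with USF1 in 6.82% and 80.2%. The T-box motif was in 2.64% of kept and 3.9% of lost peaks. At PCGF1 peaks the E-box shares were 4.96% of kept and 6.81% of lost peaks, near those of all starts.

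Other PCGF6 lists of the series also differed between the classes. In wild-type cells 60.4% of kept and 38.8% of lost peaks were called. After knockdown of E2f6 32.0% and 12.9% were called and after knockdown of Mga 4.79% and 0%, and in the hairpin control 79.7% and 76.5%. These lists held 557, 468 and 7451 peaks, and kept peaks were the more enriched (median 8.25-fold against 6.45-fold in the control list). The part of list length and peak strength in these shares was not tested. In Pcgf6-/- cells 9.08% of kept and 26.5% of lost sites had a RING1B peak. The removal of own-knockout peaks took 28.8% of the control and 40.5% of the Ring1a/b-/- PCGF6 list, and 89.7% of the removed control peaks were found again in Ring1a/b-/-. Without removal 53.2% of control peaks counted as kept, the WDR5 difference was 6.64 points and the promoter difference turned to -3.63 points.

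The kept PCGF6 promoters with the highest fold in Ring1a/b-/- were those of Sox30, a testis transcription factor (23.0-fold in the control list and 32.8-fold in Ring1a/b-/-), the histone deacetylase gene Hdac2 (39-fold and 28.6-fold), Spop, an adaptor of a ubiquitin ligase (18.8-fold and 24.9-fold), the meiotic cohesin gene Stag3 (29.5-fold and 24.7-fold) and the helicase gene Dhx40 (25.9-fold and 23.9-fold). All 5 overlapped both WDR5 and RING1B in wild-type cells and none overlapped SUZ12. The Hdac2 peak also overlapped another PCGF antibody's own-knockout list. Sox30, Spop and Dhx40 are on chromosome 11, which held 17% of all kept and 4.93% of wild-type PCGF6 peaks. The strongest lost promoters had lower control enrichment, at Mesdc1 (13.7-fold), the homeobox gene Hoxd1 (13.3-fold), the glucocorticoid receptor gene Nr3c1 (12.6-fold), Zfp385b (12.3-fold) and the deubiquitinase gene Usp47 (12.3-fold). These 5 also overlapped WDR5 and RING1B, and Hoxd1 and Zfp385b overlapped SUZ12. The genes E2f6 and Mga, which encode DNA-binding partners of PCGF6, kept promoter peaks of their own (19.7-fold and 8.93-fold, and 7.15-fold and 8.43-fold).

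Germline genes kept PCGF6 without RING1A and RING1B. Of 20 annotated germline and meiosis genes, 12 had a control PCGF6 promoter peak and 10 kept it, namely Ddx4, Mael, Dazl, Taf7l, Tex101, Slc25a31, Stk31, Stag3, Mov10l1 and Mei1, while Sycp3 and Sohlh2 lost it. Over all protein-coding genes 469 of 1017 kept it (46.1%). Of the 7 germline genes with a peak in the strongest strength group all kept it, beside 78.8% of all genes with such a peak. Enrichment at the kept germline promoters ran from 4.68-fold at Slc25a31, a testis nucleotide carrier, to 29.5-fold at Stag3 in the control list, and from 5.85-fold to 24.7-fold at the same genes in Ring1a/b-/-. Of the 10 kept peaks, 9 overlapped WDR5 (all except Tex101), and Ddx4, Mael and Mei1 overlapped SUZ12. The Dazl peak also overlapped another PCGF antibody's own-knockout list.

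Nearly all of these genes were raised where PCGF6 itself was absent. In Pcgf6-/- 9 of the 10 kept germline genes rose and Stag3 fell, and 27.8% of all genes tested were raised and 18.6% lowered. Slc25a31 had 3.85 and 4.78 CPM in wild-type and 180 and 196 CPM in Pcgf6-/- libraries (log2 fold change 5.44 ± 0.18 SE, adjusted p = 1.14e-10). Ddx4, the germ-cell helicase, had 16.1 and 15.2 against 224 and 250 CPM (3.92 ± 0.13, adjusted p = 1.14e-10), and Mov10l1, a piRNA factor, 12 and 10.1 against 198 and 204 CPM (4.18 ± 0.16, adjusted p = 3e-10). In each of these genes the libraries of the 2 groups lay far apart. Stag3 fell from 87.3 and 83.3 to 67.6 and 57.3 CPM (-0.45 ± 0.12, adjusted p = 0.00731). The genes that had lost the peak were also raised, Sycp3 by 2.98 ± 0.17 on the log2 scale (adjusted p = 6.86e-09) and Sohlh2 from 39.4 and 32.4 to 238 and 249 CPM, as were 19 of the 20 tested genes of the list. The rise in Pcgf6-/- therefore did not separate germline genes with kept peaks from those without. Sox30 had 0 CPM in both wild-type libraries and 4.11 and 1.99 CPM in Pcgf6-/- (adjusted p = 0.00019).

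**Figure D4:**
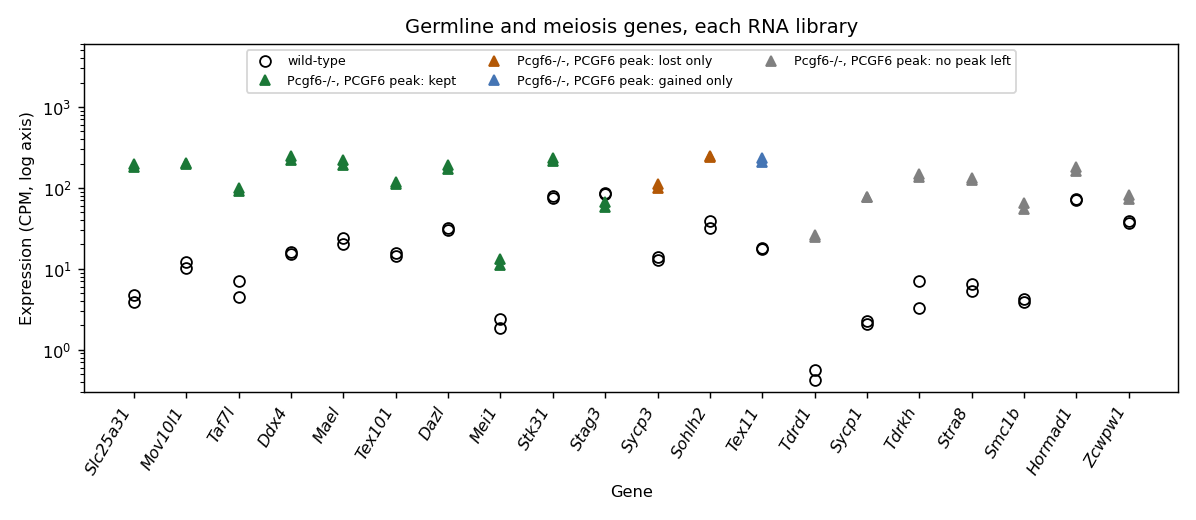
Expression of the 20 tested germline and meiosis genes in each wild-type (open circles) and Pcgf6-/- library (triangles) in CPM on a log axis, with triangles coloured by what happened to the PCGF6 promoter peak in Ring1a/b-/-. Of the 20 genes, 19 were called raised and Stag3 lowered, beside 27.8% raised and 18.6% lowered among all genes tested.

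Across all kept PCGF6 promoters, expression in Pcgf6-/- divided by wild-type RING1B. Of 403 tested genes with a kept promoter peak 126 were raised (31.3%) and 70 lowered (17.4%), with a median log2 fold change of 0.08. Where the kept peak overlapped RING1B, 89 of 172 were raised (51.7%) and 20 lowered, with a median of 0.50, and where it did not, 37 of 231 were raised (16.0%) and 50 lowered, with a median of -0.09. Genes with only lost peaks were raised in 185 of 440 cases (42.0%) and lowered in 49 (11.1%), with 51.4% raised where RING1B had been present and 33.6% where it had not. Expression level moved with these classes: the wild-type median was 4.50 CPM per kb for kept genes with RING1B, 19.0 for kept genes without it and 7.78 for all genes tested. At individual genes, Usp47 rose from 79.5 and 73.1 to 130 and 128 CPM (0.76 ± 0.11, adjusted p = 3.81e-05), and Mga fell from 226 and 216 to 112 and 114 CPM (-0.97 ± 0.12, adjusted p = 1.43e-05). Of 3 Hox genes with a kept PCGF6 peak, Hoxa7 fell from 11.6 and 10.5 to 2.86 and 1.84 CPM (-2.20 ± 0.31, adjusted p = 4.08e-05). Of all 18 tested Hox genes 7 were lowered and 0 raised, among them 5 lowered of 14 with no PCGF6 promoter peak left. Lysosome genes kept PCGF6 in 5 of 9 cases (55.6%), near the 46.1% of all protein-coding genes, at Ctsd, Atp6v0d1, Atp6v1h, Tmem55b and Vps33a, all on wild-type USF1 peaks with an E-box. Atp6v1h had a kept PCGF6 and a lost PCGF3 peak at the same promoter, but both overlapped another PCGF antibody's own-knockout list. Of the 5 lysosome genes, Tmem55b fell from 23.3 and 23.5 to 13.3 and 12.1 CPM (-0.87 ± 0.18, adjusted p = 0.00118) and Atp6v0d1 from 117 and 116 to 79.3 and 84.1 CPM (-0.52 ± 0.13, adjusted p = 0.00427). Of the whole lysosome list 10 of 36 were lowered and 3 raised, among them 7 lowered of 26 with no PCGF6 promoter peak left. The 4 expression comparisons share the wild-type libraries, and nothing in the labels says that libraries of a group came from separate cultures, so their p-values measure only the spread between these libraries.

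**Figure D5:**
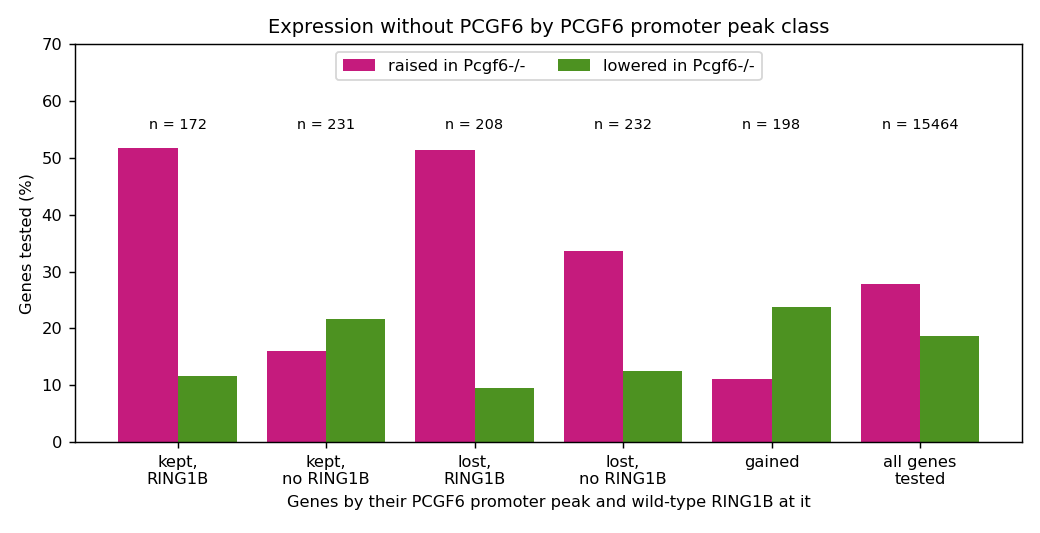
Share of tested genes raised (pink) or lowered (green) in Pcgf6-/- against wild-type at an adjusted p below 0.05 (%), by PCGF6 promoter peak class and wild-type RING1B overlap, with the number tested above. Kept and lost genes with RING1B show 51.7% and 51.4% raised, and all genes tested 27.8%.

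Peaks gained in Ring1a/b-/- seldom lay on wild-type RING1B, except for PCGF3, where the share was near the 10.9% of its control list. PCGF6 gained 368 peaks, PCGF2 206, PCGF1 69 and PCGF3 39. Wild-type RING1B overlapped 4.62% of the gained PCGF6 peaks, 1.45% of the PCGF1 peaks, 12.8% of the PCGF3 peaks and none of the PCGF2 peaks. H3K4me3 overlapped 62.8%, 97.1%, 25.6% and 10.7% of them. USF1 overlapped 34.5% of gained PCGF6 peaks, and the genes with only gained PCGF6 promoter peaks were raised in 11.1% and lowered in 23.7% of 198 tested cases in Pcgf6-/-, beside 27.8% and 18.6% of all genes tested. Gained PCGF2 peaks lay mostly between genes (56.3%) or in introns (24.3%), and 9.71% overlapped a wild-type PCGF2 peak. Gained does not mean absent elsewhere. Of gained PCGF6 peaks 53.5% overlapped the PCGF6 list of Pcgf2/4-/- (12842 peaks). Of gained PCGF2 peaks 49.5% overlapped the PCGF2 list of Pcgf6-/- (7739 peaks). In Pcgf6-/- these shares were 5.8% for gained PCGF1 and 12.8% for gained PCGF3 peaks.

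PCGF3 and PCGF6 shared part of their sites in the double knockout. Of the 79 PCGF3 peaks left in Ring1a/b-/-, 28 overlapped a PCGF6 peak left there (35.4% of PCGF3 and 2.87% of 977 PCGF6 peaks). Of the same 79 peaks, 22.8% overlapped the PCGF6 list of Pcgf6-/-. Such sharing was not particular to kept PCGF3 sites. The PCGF6 list of Ring1a/b-/- before removal overlapped 84.2% of kept and 62.5% of lost PCGF3 peaks. Among genes with kept promoters, 11 were shared, namely Atxn3, Dvl2, March8, Mtdh, Nup188, Rcbtb1, Sgol1, Zmym6, Tcte2, Gm15698 and 3110070M22Rik, which is 52.4% of the 21 PCGF3 genes and 2.35% of the 469 PCGF6 genes. PCGF1 and PCGF6 shared 36 such genes, 4.56% of 789 and 7.68% of 469. The Tcte2 region of chromosome 17 held kept peaks of all 4 proteins.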

How the data were processed

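ChIP-seq peaks and RNA-seq were analysed from the deposited files. Per the submitters' processing notes, the tools were Bowtie 1.2.2, MACS2 2.1.1, TopHat2 2.1.1 and HTSeq 0.7.2, with build mm9. The deposited peak lists give each peak's fold enrichment (a ratio), its −log10 p and −log10 q and its summit position, and each list is of 1 library. The deposited RNA table gives read counts per gene for 14 libraries in 7 groups of 2. Per the labels' protocols, PCGF1 chromatin was crosslinked with EGS and formaldehyde and that of the others with formaldehyde alone.

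Peaks were compared by overlap of at least 1 bp. A promoter peak had its summit within 2.5 kb of an annotated start (GENCODE on NCBIM37, which is mm9), and genes were named from the nearest protein-coding start within that distance. Strength groups, 4 of equal size, rank the control list by −log10 q. Shares have Wilson and their differences Newcombe 95% intervals. edgeR 4.0.16 (quasi-likelihood test, TMM, filterByExpr) was fitted to all 14 libraries, with 15464 of 23377 genes tested and Benjamini-Hochberg adjustment at 0.05. DESeq2 1.42.0 was an alternative. Scripts were tested on simulated data. Named genes were the 5 most enriched kept and lost promoters per protein, every kept promoter of PCGF2 and PCGF3, and kept members of the gene lists, with other sites chosen after their values were seen. The members and lists were chosen with earlier results of these data known. No column lacked a sample. Some members of the gene lists are not reported here.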

Additional observations from a re-analysis of the deposited data

How the results depend on the processing

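Every value here comes from 1 library per antibody and line, and peak depth is not given. The share of PCGF1 peaks kept was 2.18% with 50% of the peak covered, 36.2% with equally many peaks from both lists, 29.0% among peaks also called in wild-type, 22.6% with the wild-type list as reference, 0.211% at −log10 q of at least 15 and 5.89% without chromosomes 6 and 11. Under the first 5 settings its SUZ12 difference was -17.3, -2.91, 1.77, 0.638 and -5.57 points, the last from 9 kept peaks (-36.8 to 15.7). Its promoter difference was 17.9, 1.29, -1.13 and -1.29 points under the first 4, and 17 points with starts within 1 kb. The PCGF2 share was 0% with equal numbers and among wild-type peaks, 2.89% without removal, 0.521% with the wild-type reference, 0.0444% at the stricter q and 0.0532% without the shared regions of chromosomes 1 and 17. Its SUZ12 difference was -89.5 points with the wild-type reference and -93.5 points at the stricter q, the latter from 1 kept peak. Its promoter difference was -24.5 points (-53 to 4.04) for the 8 kept peaks and 8.59 points without removal. At the stricter q it was 22.9 points from 1 kept peak (-56.4 to 24.7). Without the shared regions it was 25.5 points from 2 kept peaks (-40.3 to 26.9). No PCGF2 difference could be given where none was kept. The PCGF3 share was 12.3% with the wild-type reference and 15.6% at the stricter q. Its USF1 difference was 3.87 points with the wild-type reference and its promoter difference 0.175 points without chromosomes 6 and 11. The PCGF6 share was 33.7% with 50% covered, 51.5% with equal numbers, 53.2% without removal, 49.2% among wild-type peaks, 29.2% with the wild-type reference and 46% at the stricter q. Its WDR5 difference was 21.6, 6.64, 36.8 and 14.6 points with equal numbers, without removal, with the wild-type reference and at the stricter q. Its promoter difference was -3.63, 8.8, 9.36 and 11.6 points without removal, among wild-type peaks, with the wild-type reference and at the stricter q. The causes were not tested. The stricter q, the removal of peaks in any of the 4 own-knockout lists, and the settings without chromosomes 6 and 11 or the shared regions were chosen after seeing the data. Replicate numbers did not pair the RNA libraries (correlations -0.462 to 0.375), and with a replicate block 207, 0, 1 and 187 kept genes of PCGF1, PCGF2, PCGF3 and PCGF6 were changed, against 228, 0, 1 and 196. With 1 library left out, PCGF1 had 140 to 176, PCGF3 0 to 1 and PCGF6 150 to 157 changed genes. PCGF3 had 2 without the low-count filter and 2 with its 2 groups alone. Of 45 named genes with a call, 15 lost it in at least 1 alternative.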
